A study of Mus musculus with 9 samples.

Results

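The genes described here are named after the proteins of the cytosolic ribosome. They were the rows whose gene symbol follows the Rpl and Rps naming pattern, including the stalk genes Rplp0, Rplp1 and Rplp2 and the small subunit gene Rpsa, and whose normalized count averaged at least 10 over the 9 libraries. The deposited matrix held 41388 genes. Of these, 85 had a matching symbol and 82 of the 85 passed the minimum, beside 11599 genes that passed it in all. The 82 members comprised 33 genes of the small subunit and 49 of the large subunit, the 3 stalk genes among them. The 3 matching genes below the minimum were Rpl3l with a mean of 0.711, Rpl10l with 0.115 and Rps12l1 with 0.0825, which rested on 6, 1 and 1 reads over all libraries. Just inside the minimum lay Rpl39l with a mean of 10.0 and Rps4l with 13.3. By annotation 81 of the 82 members are protein-coding, and Rps4l is a transcribed processed pseudogene.

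The cytosolic ribosome translates messenger RNA into protein. Its small subunit reads the mRNA and its large subunit joins the amino acids, and most of its protein genes are single active genes accompanied in the mouse genome by many processed pseudogenes, which are intronless copies of their mRNAs. Activated T cells make many ribosomes as they grow and divide. The mRNAs of ribosomal proteins often begin with a C followed by a run of pyrimidines, the 5′ terminal oligopyrimidine (TOP) tract, through which mTOR signalling and the binding protein LARP1 adjust their translation.

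Tc17 cells are CD8+ T cells that make IL-17, and those studied here were raised in culture. Naive CD62L+CD44-CD8+ T cells of C57BL/6 mice aged 8 to 12 weeks were sorted from lymph node and spleen and cultured for 48 h on plate-bound anti-CD3 (5 µg/ml). All 3 groups also received anti-CD28 (0.5 µg/ml), IL-2 (50 U/ml), TGF-β (0.5 ng/ml), IL-6 (30 ng/ml), an antibody to IFN-γ (5 µg/ml) and the solvent DMSO. The Ctrl group had DMSO alone (0.2%). The DMF group had 20 µM dimethyl fumarate, an electrophile that reacts with thiols such as glutathione. The DMF + GSH group had 20 µM DMF with 50 µM glutathione. Each group had 3 libraries, where replicate 1 formed preparation batch 1 and replicates 2 and 3 batch 2. The sources used here do not say whether the replicates came from separate animals, so that p-values measure the spread between these samples.

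Depth ranged from 7671772 reads in Ctrl 3 to 14511926 in DMF + GSH 2. The T cell markers Cd8a (9317 to 13778 normalized counts) and Cd8b1 (2512 to 3731) were present in every library, as were Cd28 and the 3 CD3 chain genes (1934 or more). Among these 6 markers Cd8a was higher in each DMF library (10923 to 13778) than in any Ctrl library (9483 to 10599), whereas Cd28 was lower (3509 to 5075, against 5185 to 6637), and their part in the results was not tested. Cd4 (0 to 4.40) and Ncr1 (0 to 2.08) were at or near 0. Hbb-bs and Hba-a1 were listed at 0 throughout. The myeloid marker Lyz2 was at 119 in Ctrl 3 and between 0 and 10.6 in the other libraries. The type 17 cytokine gene Il17a was lower in each DMF library (31.7 to 146) than in any Ctrl library (269 to 504).

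The coding sequences of the members are shown first, because many of them recur elsewhere in the genome and a read of 50 bases may then not tell the gene from its copies. Each coding sequence of the GENCODE vM21 annotation of GRCm38 was divided into overlapping windows of 50 bases, and each window was looked up in the annotated transcripts of loci that do not overlap the gene. In 29 of the 82 members every window was found at another locus. The sources used here do not state whether the authors counted reads that align to several places, and the part of shared reads in the values was not tested. The first 100 coding bases of 6 members are printed for a range from full to 21.9% overlap, with capitals for bases that lie in a window found elsewhere.
Rpl23a: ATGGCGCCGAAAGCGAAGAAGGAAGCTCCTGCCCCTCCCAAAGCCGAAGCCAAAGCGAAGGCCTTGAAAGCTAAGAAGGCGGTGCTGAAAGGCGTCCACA
Rps6: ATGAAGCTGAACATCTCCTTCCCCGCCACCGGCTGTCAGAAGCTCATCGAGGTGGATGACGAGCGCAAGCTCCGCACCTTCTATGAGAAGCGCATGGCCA
Rpl12: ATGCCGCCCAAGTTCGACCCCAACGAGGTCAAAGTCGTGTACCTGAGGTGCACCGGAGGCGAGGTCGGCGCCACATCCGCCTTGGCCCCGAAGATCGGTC
Rps27: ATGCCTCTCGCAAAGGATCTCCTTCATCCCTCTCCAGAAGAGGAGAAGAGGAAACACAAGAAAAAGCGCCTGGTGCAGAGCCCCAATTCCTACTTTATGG
Rps27l: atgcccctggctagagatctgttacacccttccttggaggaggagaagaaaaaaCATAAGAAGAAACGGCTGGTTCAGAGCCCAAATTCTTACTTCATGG
Rpl7l1: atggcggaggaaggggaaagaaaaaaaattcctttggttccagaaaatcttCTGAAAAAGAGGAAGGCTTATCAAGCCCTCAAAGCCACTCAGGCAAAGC

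Rpl23a lies at chr11:78180932-78183584 on the minus strand, and its 468 coding bases were covered in full by windows found at 28 other loci as a set, all of them annotated pseudogenes. Rps6 (chr4:86854660-86857412, minus strand) and Rpl12 (chr2:32961559-32965345, plus strand) were each covered in full by windows of 14 other loci as a set. Rps27 (chr3:90212522-90213651, minus strand) was so covered by 9. Its paralog Rps27l (chr9:66946086-66949516, plus strand) had 48.3% of its windows at 4 other loci, and the 252 coding bases of the pair were identical at 192 positions (76.2%). Rpl7l1 (chr17:46773907-46782672, minus strand) had 21.9% of its windows elsewhere. The 82 members lay on 19 chromosomes, 14 of them on chromosome 7. A small nucleolar RNA was annotated within the span of 30 members, and a protein-coding gene on the opposite strand overlapped the span of 16. Nor do the sources state whether the counting used strand, so that reads of such overlapping genes may not be separable.

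Levels differed widely among members. As normalized counts per kb of annotated exon, averaged over the 9 libraries, they ran from 12.1 for Rpl39l to 15809 for Rpl4, a range of 1309-fold around a median of 510.1. Exon bases were pooled over all annotated transcripts, giving 3598 for Rpl12 with 495 coding bases and 2007 for Rpl4 with 1257. The level per kb therefore also depends on this length and may not rank the amounts of mRNA. The highest levels per kb were those of Rpl4 with 15809 ± 765, Rpl8 with 15038 ± 1112, Rplp1 with 14754 ± 1549 and Rplp0 with 11587 ± 803 (SD, n = 9 libraries of all groups). In this order Rpl4 and Rpl8, and Rpl8 and Rplp1, differed by less than the larger of their SDs. Across the 82 members, Spearman's rho between the share of windows found elsewhere and the level per kb was -0.67, a description over genes measured in the same libraries. Among the members with every window shared were Rps27 with 18.2 normalized counts per kb, Rpl24 with 25.7 and Rps6 with 41.2, but also Rps16 with 974, and the class reached 3744. The lowest levels of all 82, those of Rpl39l with 12.1 and Rps4l with 14.1, belonged to members with under 50% of their windows shared. The median was 92.4 normalized counts per kb over the 29 members with every window shared, 799 over the 38 with 50% to under 100% shared and 4126 over the 15 with under 50% shared.

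**Figure D1:**
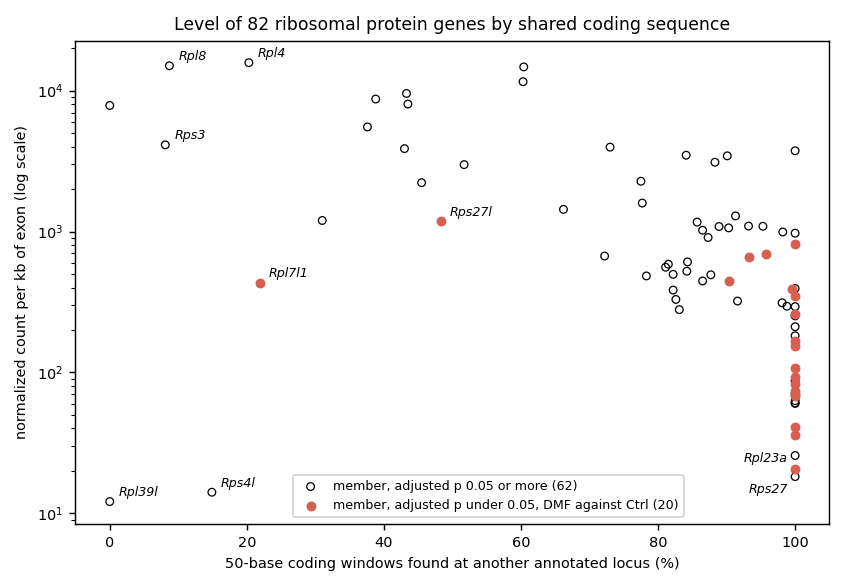
Level of the 82 members as normalized count per kb of exon, mean of 9 libraries, on a log axis, against the percentage of 50-base coding windows found at another annotated locus. Filled points are the 20 members with an adjusted p under 0.05 for DMF against Ctrl; 18 of them lie at 90.3% or more, and the other 2 are Rpl7l1 and Rps27l.

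DMF compared with Ctrl asks what the drug changes in these cells. With an adjusted p under 0.05 (limma, Benjamini-Hochberg over all genes tested) 20 of the 82 ribosomal protein genes rose and 0 fell. The gains ran from 1.19-fold for Rpl7a to 2.53-fold for Rpl23a, and the most abundant members, such as Rpl4 and Rplp0, were not called. Over all genes tested 28.0% were called in either direction, 14.6% higher and 13.3% lower, so that the share of members called, 24.4%, was near that of all genes while its direction was one-sided. The log2 fold change was above 0 for 74 of 82 members and for 50.6% of all genes. Its median was 0.18 over the members and 0.01 over all genes. In replicate 1, the only pair of batch 1, the median over members was 0.11, and in replicates 2 and 3 of batch 2 it was 0.14 and 0.34. All 3 DMF libraries lay above all 3 Ctrl libraries for 31 members (37.8%, against 21.6% of all genes) and below them for 0 members (19.8% of all genes).

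With the replicate number as a block, 31 members rose and 0 fell, beside 45.0% of all genes called, 23.7% higher and 21.4% lower. By edgeR on the recovered reads 19 rose and 0 fell, beside 28.3% of all genes, 14.9% higher and 13.3% lower. At an unadjusted p under 0.05 (limma) 28 members were higher and 0 lower, where 41.5% of all genes passed. Rpl27 and Rpl36a passed the study's stricter threshold, which asks for an adjusted p under 0.01 and a log2 change of 0.75 or more in size (1.22% of all genes passed it as higher). The count depended on single libraries. It was 0 without DMF 1, where 0.948% of all genes were called. It was 4 without DMF 3 (8.22% of all genes), 6 without Ctrl 2 (10.0%) and 8 without Ctrl 1 (5.41%). With the block it stayed between 17 and 46 whichever library was left out, beside 35.4% to 47.1% of all genes.

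**Figure D2:**
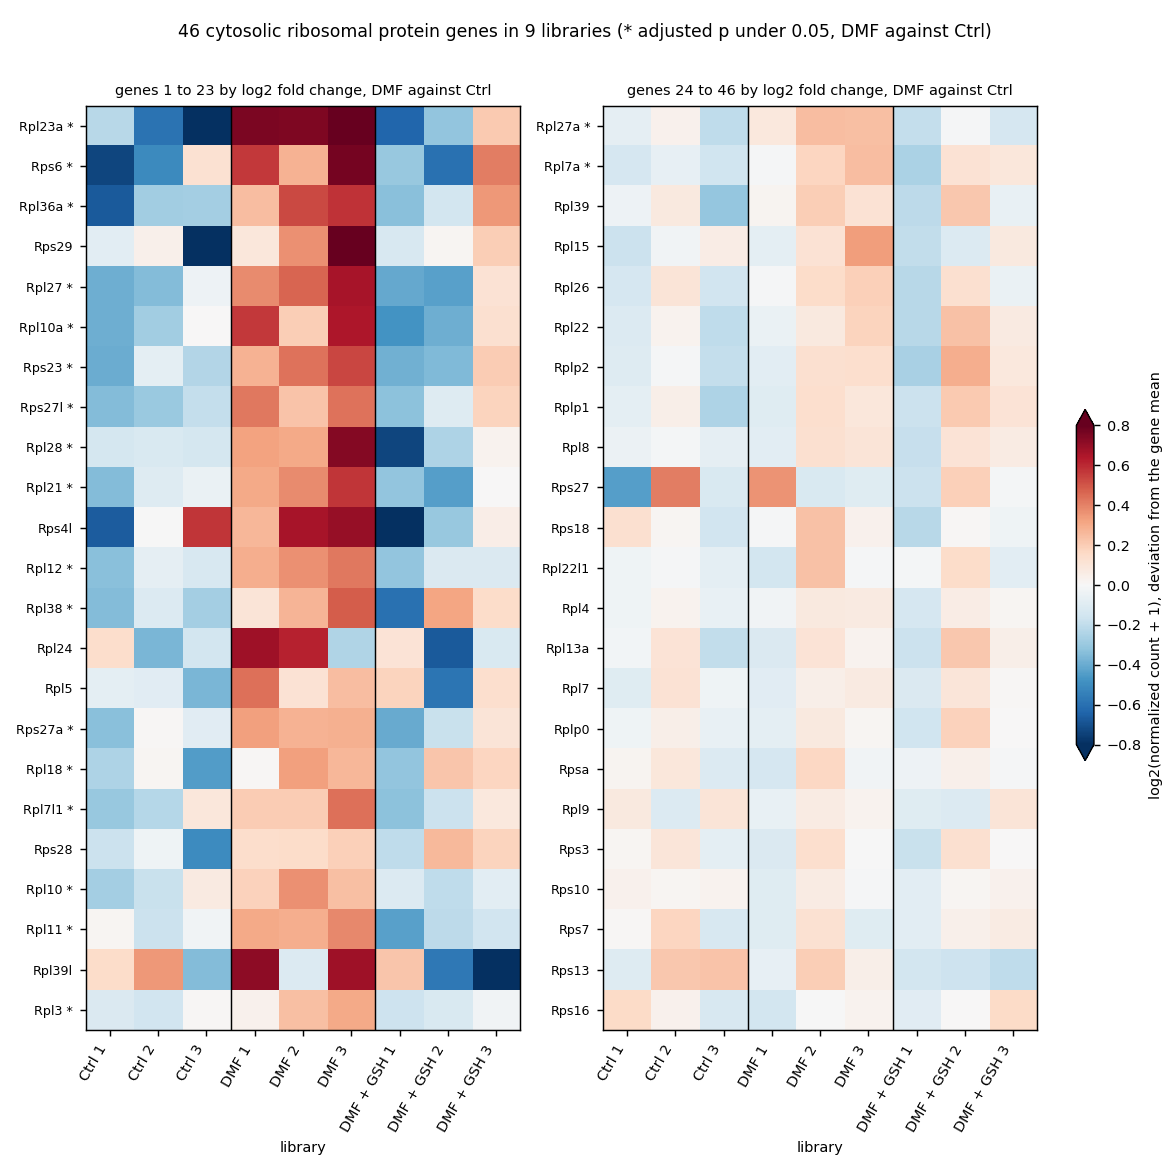
The 46 members named here in each of the 9 libraries, as log2(normalized count + 1) minus the mean of that gene, ordered by the log2 fold change of DMF against Ctrl; colours saturate at 0.8 in either direction. The called members (asterisk) are red or near white in the DMF columns, and most rows of the right panel are pale in all columns.

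Among the large subunit genes, 15 of 46 without the stalk were called higher (32.6%, against 14.6% of all genes) and their median log2 fold change was 0.28. Rpl23a, whose product sits at the exit of the peptide tunnel, had 13.5, 10.2 and 8.53 normalized counts in Ctrl 1 to 3. It had 27.5, 27.4 and 30.0 in DMF, and 9.90, 12.6 and 18.5 in DMF + GSH. The DMF libraries stood above all others. Its log2 fold change with DMF of 1.34 (SE 0.311, adjusted p = 0.0142, limma) was the largest of the 82 and rested on 6 to 32 reads per library.

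Rpl36a was at 67.6, 89.2 and 89.6 in Ctrl, 129, 157 and 162 in DMF and 85.8, 98.0 and 138 in DMF + GSH. DMF and Ctrl did not overlap, whereas DMF + GSH 3 lay within the DMF range (log2 fold change with DMF 0.86, SE 0.147, adjusted p = 0.00650, limma). Rpl27 had 293, 301 and 373 in Ctrl, 498, 529.9 and 607 in DMF and 289, 284 and 416 in DMF + GSH. Each DMF library exceeded every library of the other groups (0.76, SE 0.142, adjusted p = 0.00737, limma).

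Rpl12, which helps to form the base of the stalk, had the smallest adjusted p of the members. It was at 300.4, 359.5 and 346 in Ctrl, 464, 488 and 508 in DMF and 304, 349 and 350.0 in DMF + GSH, where Ctrl and DMF + GSH spanned the same range (log2 fold change with DMF 0.54, SE 0.0783, adjusted p = 0.00457, limma). The gene Lrsam1 overlaps Rpl12 on the opposite strand. Such a protein-coding neighbour was annotated for 6 of the 20 called members, namely Rpl12, Rpl18, Rpl23a, Rpl28, Rpl3 and Rps27a.

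Rpl5 and Rpl11 form, with the 5S rRNA, the particle that binds MDM2 when ribosome assembly is disturbed. Rpl11 rose by 0.39 from 194 to 221 in Ctrl to between 268 and 286 with DMF (adjusted p = 0.0280, limma). Rpl5 was at 179 to 219 in Ctrl and 251 to 314 with DMF, also without overlap, but had an adjusted p of 0.0785 (limma), and 0.0128 with the block. The other large subunit genes called were Rpl10, Rpl10a, Rpl18, Rpl21, Rpl27a, Rpl28, Rpl3, Rpl38, Rpl7a and the paralog Rpl7l1, with log2 fold changes from 0.26 for Rpl7a to 0.69 for Rpl10a. In Rpl18 alone of the 20 called genes the groups overlapped, with 1806 in Ctrl 2 and 1797 in DMF 1.

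The members with the highest counts were near 0. Rpl4 had 30889.7, 32266 and 30458 in Ctrl and 31149, 33525 and 33259.6 with DMF, a log2 fold change of 0.06 (log2 scale, SE 0.0750, adjusted p = 0.540, limma). Rpl8 and Rpl13a, the latter a component of the complex that represses translation after interferon-γ, had 0.10 and 0.04. The values for Rpl8 were 19356 to 20134 in Ctrl and 19216 to 22298 with DMF, and those for Rpl13a were 16045 to 19804 and 16933 to 19788. Rpl26, which binds p53 mRNA, had 0.17 (adjusted p = 0.157, limma, and 0.0399 with the block). In the stalk, which recruits the elongation factors, 0 of the 3 genes were called. The log2 fold changes were 0.02 for Rplp0, 0.14 for Rplp1 and 0.16 for Rplp2, and the groups overlapped in each of them.

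**Figure D3:**
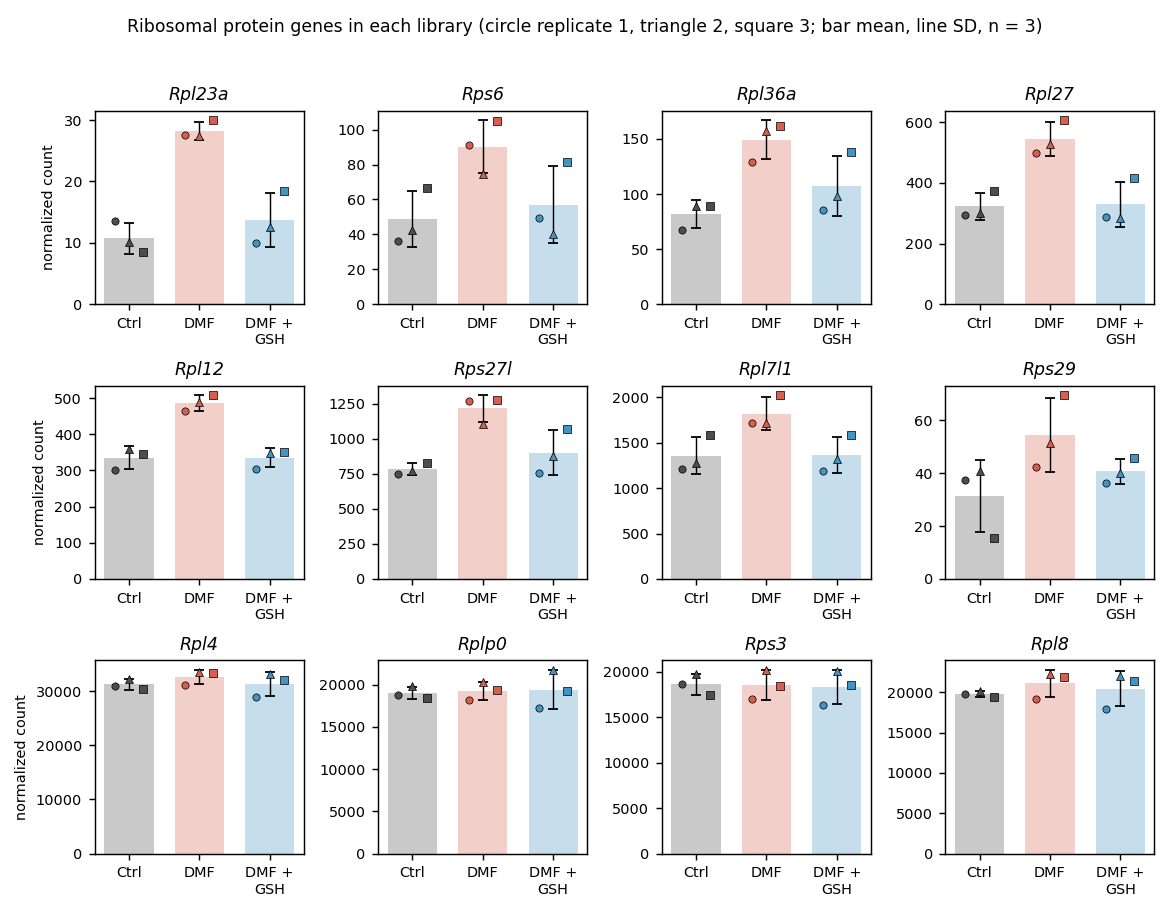
Normalized counts of 12 members in each library, with bars for the mean, error lines for the SD (n = 3) and symbols for the replicate numbers. The upper 7 genes from Rpl23a to Rpl7l1, and Rps29, have all DMF libraries above all Ctrl libraries. Rps29 has its lowest value in Ctrl 3 and its highest in DMF 3, and Rpl4, Rplp0, Rps3 and Rpl8 overlap between groups.

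Of the 33 small subunit genes 5 were called higher, 15.2% and so near the 14.6% of all genes, and their median log2 fold change was 0.10. Rps6, the substrate of the S6 kinases downstream of mTOR, was at 36.4, 42.7 and 66.8 in Ctrl, 91.0, 74.5 and 105 in DMF and 49.5, 40.1 and 81.7 in DMF + GSH. DMF lay above Ctrl without overlap, and DMF + GSH 3 lay within the DMF range. The log2 fold change was 0.91 (SE 0.290, adjusted p = 0.0414, limma), with 1.30, 0.79 and 0.65 in replicates 1, 2 and 3. Rps27a, which is made as a fusion with ubiquitin, rose by 0.44 from 238, 302 and 282 to 378, 365 and 366 (adjusted p = 0.0225, limma). Rps23 rose by 0.65 and Rps27l by 0.64.

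Rps29 had a log2 fold change of 0.86, as large as that of Rpl36a, but an adjusted p of 0.0906 (limma), and 0.0231 with the block. Its counts were 37.4, 40.9 and 15.6 in Ctrl, 42.3, 51.4 and 69.7 in DMF and 36.3, 40.1 and 45.7 in DMF + GSH. The low value was in Ctrl 3, the shallowest library, where it rested on 11 reads, and the log2 differences in replicates 1, 2 and 3 were 0.17, 0.32 and 2.09. Rps3, which lines the mRNA entry channel, was at 17458 to 19711 in Ctrl and 17015 to 20243 with DMF (log2 fold change -0.01, adjusted p = 0.959, limma). Rpsa, also known as the laminin receptor, had 865 to 996 and 851 to 1049.5 (0.00, adjusted p = 0.996). The members lowest in this comparison were Rps13 and Rps16 with -0.06 each, Rps7 and Rps10 with -0.04 each and Rpl9 with -0.01, all with an adjusted p of 0.656 or more (limma).

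The paralogs named after another ribosomal protein were compared with their parent genes by their values alone, since the difference between 2 genes was not tested. Rps27l, a p53 target, rose from 746, 772 and 830.5 in Ctrl to 1268, 1109 and 1280.4 with DMF, with 754, 881 and 1072 with DMF + GSH. The log2 fold change was 0.64 (SE 0.113, adjusted p = 0.00683, limma), and 0.10 for Rps27 (adjusted p = 0.818), which lay between 13.5 and 25.1 in all 9 libraries. Rpl7l1, which acts in ribosome assembly, rose from 1209.7, 1274 and 1589.8 to 1720.2, 1715 and 2027 and was at 1189, 1325 and 1581 with DMF + GSH. Its log2 fold change was 0.43 (SE 0.107, adjusted p = 0.0175, limma), and 0.02 for Rpl7. Rps27l and Rpl7l1 were the only called members with under 50% of their windows shared, of 15 such members. In Rpl22l1 and Rpl22 the values were 0.07 and 0.16, and in Rpl39l and Rpl39 they were 0.38 and 0.20, with an adjusted p of 0.219 or more in each (limma). Rpl39l passed the minimum only through its DMF libraries, with group means of 9.86 in Ctrl, 13.3 in DMF and 6.94 in DMF + GSH. Rpl3l and Rpl10l, at or near 0, could not be compared, while their parents Rpl3 and Rpl10 rose by 0.28 and 0.39. Rpl36al, whose symbol the naming pattern does not match, rose by 0.56 (adjusted p = 0.00640, limma), beside 0.86 for Rpl36a.

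The size of the difference followed the level. Spearman's rho between mean normalized count and log2 fold change was -0.63 over the 82 members and 0.10 over all 11599 genes, a description over genes of the same libraries. Of the 8 members with a mean under 100, 3 were called (37.5%, against 15.3% of all genes of that range in either direction) and the median log2 fold change was 0.58, where all genes of that range had -0.10. These 8 include Rpl39l, not called, which passed the minimum only through its DMF libraries. Of the 30 members from 100 to under 1000, 13 were called (43.3%, against 28.4%) and the median was 0.39, beside 0.02 for all genes. Of the 38 from 1000 to under 10000, 4 were called (10.5%, against 39.5%) and the median was 0.12, beside 0.04. Of the 6 at 10000 or more, 0 were called (36.8% of all genes) and the median was 0.04, beside 0.02. The share of members called was thus above that of all genes in the lower ranges and below it from 1000 upward. Members with more windows found elsewhere had lower levels, as given above, and were counted by class too (14.6% of all genes were called higher and 28.0% in either direction). Of the 29 members with every window shared 14 were called (48.3%) and the median was 0.40. Of the 38 with 50% to under 100% shared 4 were called (10.5%) and the median was 0.13, and of the 15 with under 50% shared 2 were called (13.3%) and the median was 0.15.

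**Figure D4:**
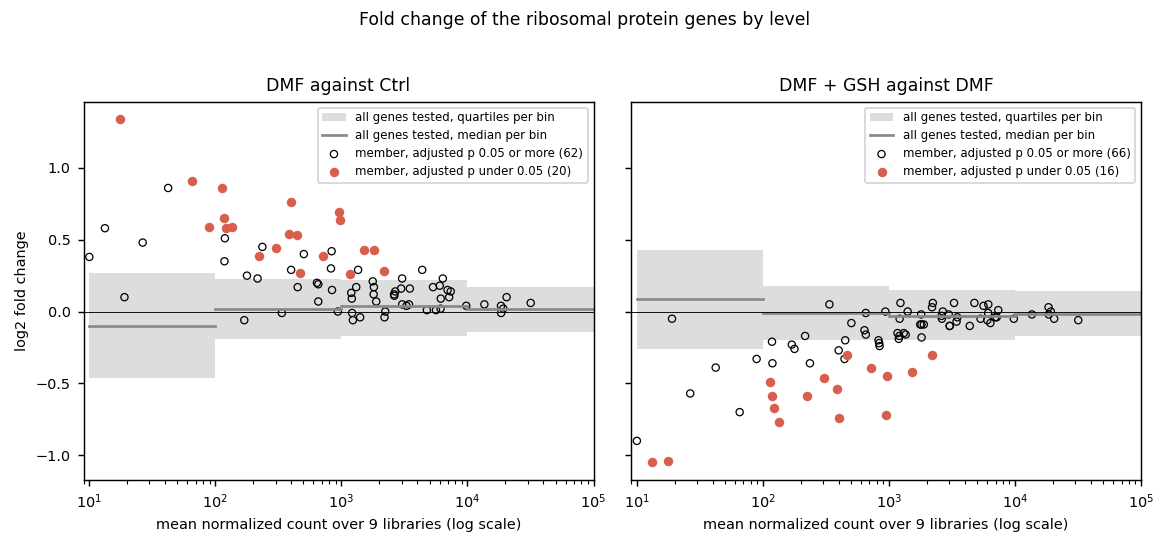
Log2 fold change of the 82 members against their mean normalized count (log axis), for DMF against Ctrl and for DMF + GSH against DMF. Grey bands and lines give the quartiles and the median of all genes tested in 4 ranges of the mean; called members are filled, 20 on the left and 16 on the right, and members above 10000 lie near 0 in both panels.

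As a share of all reads, the members took 2.37%, 2.51% and 2.24% in Ctrl 1 to 3, 2.33%, 2.64% and 2.52% in DMF and 2.18%, 2.71% and 2.53% in DMF + GSH. The 3 groups overlapped. The 8 most abundant members of each library held 50.8% to 53.6% of the summed normalized counts of the members. Of the 6 members with a mean of 10000 or more, 0 were called with DMF, beside 36.8% of all genes of that range. The 246 rows named as ribosomal protein pseudogenes summed to 923 to 1048 normalized counts in each library, against 233946 to 291902 for the members. Of the 16 pseudogene rows that passed the minimum, 0 were called in any comparison, and their median log2 fold change with DMF was 0.03.

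DMF + GSH compared with DMF asks whether added glutathione changes the response. This comparison shares the DMF libraries with the previous one, so that the values are given side by side and not as a second line of support. Here 0 of the 82 members were called higher and 16 lower, beside 22.3% of all genes called, 9.99% higher and 12.4% lower. The median log2 fold change was -0.12, against -0.00 over all genes, and 69 of 82 values were below 0. In replicates 1, 2 and 3 the median was -0.23, -0.02 and -0.12. All DMF + GSH libraries lay below all DMF libraries for 18 members (22.0%, against 20.5% of all genes) and above them for 0 (17.8%). With the replicate block 22 fell and 0 rose (41.5% of all genes called), and by edgeR 16 fell and 0 rose (22.8% of all genes). At an unadjusted p under 0.05 (limma) 22 were lower and 0 higher (37.9% of all genes).

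Rpl12 fell by 0.54 with glutathione, after 0.54 with DMF, from 464, 488 and 508 to 304, 349 and 350.0 (SE 0.0783, adjusted p = 0.00796, limma). For Rpl27 the difference was -0.74 (adjusted p = 0.0122), for Rpl28 -0.77 (adjusted p = 0.0159) and for Rpl23a -1.04 (adjusted p = 0.0394, limma). Rpl28 was at 118, 119.8 and 118 in Ctrl, 163, 161 and 218 in DMF and 78.1, 109.9 and 133 in DMF + GSH, where no DMF value was reached by another group. Rps4l, annotated as a transcribed processed pseudogene, fell from 14.8, 19.7 and 20.3 with DMF to 4.40, 9.65 and 12.6 (-1.05, adjusted p = 0.0422, limma), but its Ctrl values of 7.28, 12.1 and 18.5 overlapped DMF (0.58, adjusted p = 0.201). Rps27l and Rpl7l1 fell by 0.45 and 0.42 (adjusted p = 0.0232 and 0.0233, limma). Rps6, with -0.70, had an adjusted p of 0.106 (limma), and 0.00506 with the block, and its DMF + GSH 3 value lay within the DMF range. The block also brought Rpl5, Rpl15 and Rpl38 past the threshold, with an adjusted p of 0.0431, 0.0406 and 0.0283 (limma). The other members called lower were Rpl10, Rpl10a, Rpl11, Rpl21, Rpl27a, Rpl3, Rpl36a, Rps23 and Rps27a. The count fell to 0 without DMF 1 (0.129% of all genes called) and without DMF + GSH 1 (0.0862%), and to 1 without DMF 3 (0.922%) and without DMF + GSH 2 (1.23%). With the block it stayed between 15 and 24, beside 30.9% to 42.0% of all genes.

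For DMF + GSH compared with Ctrl, 0 members were called by limma or by edgeR, where 0 of all genes (0%) were called by either. With the block 0 members and 0.0345% of all genes were called. At an unadjusted p under 0.05 there were 3 members by limma (1.91% of all genes) and 3 by edgeR (1.84%), 2 higher and 1 lower with each tool. By limma these were Rpl36a with 0.36, Rps28 with 0.31 and Rps13 with -0.29. Rps13, the only member whose groups did not overlap, was at 157, 196 and 198 in Ctrl and 152, 150.0 and 146 with DMF + GSH (2.39% of all genes lay lower and 2.08% higher without overlap). The median over members was 0.06, but it was -0.11, 0.07 and 0.18 in replicates 1, 2 and 3. The sign of the median thus differed between replicate numbers.

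The TOP tract was looked for at RefSeq start sites (GRCm38.p6), as a C at the annotated start followed by at least 4 bases that are each C or T, on the strand of the gene. Entries were found for 61 of the 82 members, and 13 of their 72 entries (18.1%) held the tract, beside 823 of 32851 entries of all genes (2.51%). The bases from 5 before the start to 24 after it are printed for 3 members that rose and 3 that were not called, with the tract in capitals.
Rps6: cgggcCTCTTTTTCgtgacgcctcccaggc
Rpl28: tgtctCTCTTTCCgtctccggccgccatag
Rpl38: tcgttCTTTCCCCgttctcttcggttctca
Rpl15: gccttCTTCCTTTCCTCTggcggcagccat
Rps18: ccgctCTCTCTTCCacaggaggcctacacg
Rps10: cgcccCTTCCTTTCCagcctccgcctcgga

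These windows lie at chr4:86857343-86857372 (minus strand) for Rps6, chr7:4792960-4792989 (plus) for Rpl28, chr11:114668575-114668604 (plus) for Rpl38, chr14:18270962-18270991 (minus) for Rpl15, chr17:33955641-33955670 (minus) for Rps18 and chr17:27635220-27635249 (minus) for Rps10. The tract was 9, 8, 8, 13, 9 and 10 bases long in this order, and the log2 fold change with DMF was 0.91, 0.59, 0.53, 0.17, 0.09 and -0.04. Where 14.6% of all genes were called higher, 3 of the 13 members with the tract were called higher and the median was 0.16, and of the 48 with an entry but no tract 12 were called and the median was 0.22. A start site annotated a few bases away hides a tract from this search.

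Genes that work with the ribosomal proteins were described from lists of textbook members. Of 17 factors that chaperone or import ribosomal proteins or join the subunits, 14 rose with DMF and 0 fell (82.4%), with a median log2 fold change of 0.53, where 14.6% of all genes rose and the median was 0.01. Grwd1, a chaperone of the ribosomal protein RPL3, was at 508, 531 and 705 in Ctrl, 1142, 990 and 1207 in DMF and 536, 541 and 785 in DMF + GSH (0.95, adjusted p = 0.00642, limma). Rpf2, which brings the 5S particle into the large subunit, rose by 0.84, whereas Gltscr2 had -0.20 (adjusted p = 0.168, limma, and 0.0124 with the block). With the block 16 of the 17 rose and 1, Gltscr2, fell, where 23.7% of all genes rose and 21.4% fell. Of 8 tested non-coding host genes of small nucleolar RNAs 6 rose and 0 fell, among them Gas5 with 2112, 2803 and 2786 in Ctrl, 3267, 3495 and 3575 in DMF and 2041, 2443 and 2787 in DMF + GSH (0.44, adjusted p = 0.00722). The largest value of these genes was that of Snhg4 with 0.59 (adjusted p = 0.0257, limma).

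Of 26 other TOP mRNA genes 13 rose and 0 fell (50.0%, against 28.0% of all genes called), with a median of 0.20. Those most abundant were not called: Eef2 with -0.12 and Eef1a1, the elongation factor that delivers tRNA, with -0.20 (adjusted p = 0.339 and 0.133, limma). With the block Eef1a1 fell (adjusted p = 0.00625). Pabpc4, a poly(A) binding protein, rose by 0.70 and Npm1, the nucleolar chaperone nucleophosmin, by 0.50. Of 18 regulators of TOP mRNAs and ribosomes 7 rose and 2 fell (also 50.0%, where 14.6% of all genes rose and 13.3% fell). Larp1 rose by 0.58 from 5817, 5432 and 7106 to 9115, 8316 and 9910 and was at 5773, 5680 and 6912 with DMF + GSH (adjusted p = 0.00899, limma). Eif4ebp1, the translation repressor inactivated by mTOR, rose by 0.74. Maf1, which represses RNA polymerase III, fell by 0.44, and Tia1, which binds TOP mRNAs under stress, fell by 0.43.

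The mitochondrial ribosome is built from a separate set of nuclear genes. Of its 76 genes tested 45 rose and 0 fell (59.2%, against 28.0% of all genes called, and 59 rose with the block, against 45.0%). The median was 0.40, with medians of 0.38, 0.37 and 0.35 in replicates 1, 2 and 3. Mrps18b had the largest value with 0.76. Of 82 respiratory chain genes, also short mRNAs, 22 rose and 2 fell, 29.3% in all and so near the 28.0% of all genes, with a median of 0.21. With the block 44 rose and 3 fell, where 45.0% of all genes were called. Atp5b, the catalytic subunit of ATP synthase, rose by 0.32, and Cox7a2l, which helps to assemble supercomplexes, fell by 0.46. Of 5 ribosomal proteins outside the naming pattern 1, Rpl36al, rose, and Gnb2l1, the small subunit protein RACK1, was at 23954 to 25630.5 in Ctrl and 23065 to 25925 with DMF.

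With DMF + GSH compared with DMF, 14 of the 17 chaperone and joining factors fell and 0 rose, with a median of -0.53. In the snoRNA host genes 6 of 8 fell and in the mitochondrial ribosomal proteins 37 of 76, with medians of -0.51 and -0.30, and 0 rose in either. Over all genes 12.4% fell and 9.99% rose. Of the other TOP mRNA genes 7 of 26 fell (26.9%, against 22.3% of all genes called in either direction), and 14 fell and 1 rose with the block (against 41.5%). Of the 18 regulators 7 fell and 2 rose (50.0%). In DMF + GSH compared with Ctrl 0 genes of these lists were called.

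**Figure D5:**
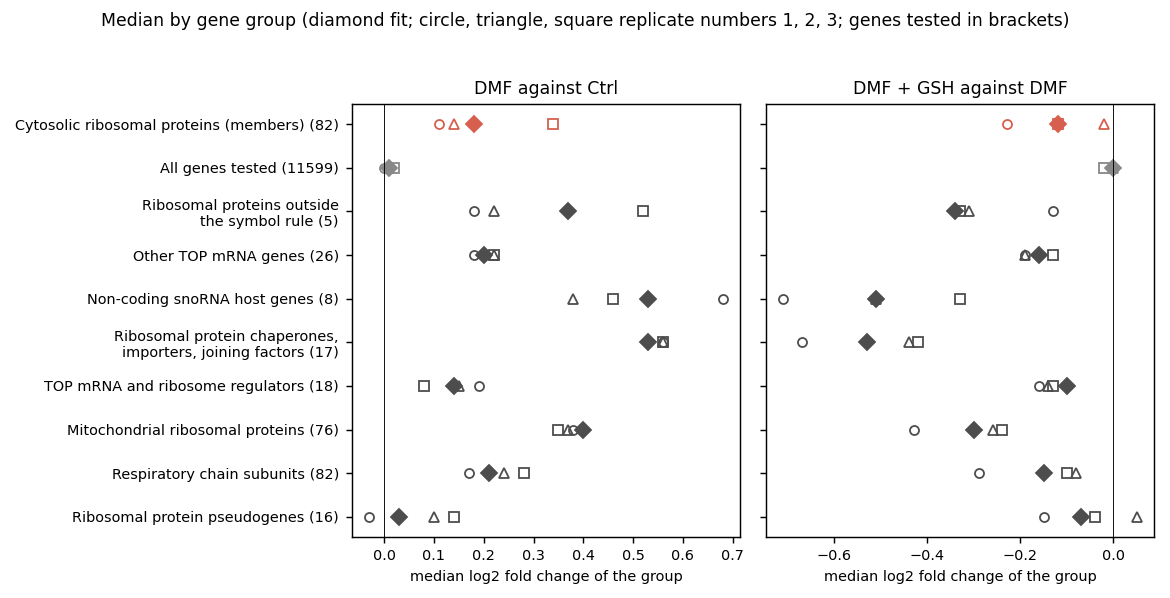
Median log2 fold change of each gene group from the fit (diamonds) and within replicate numbers 1, 2 and 3 (circles, triangles, squares), for DMF against Ctrl and DMF + GSH against DMF. The members have medians of 0.18 and -0.12, below the 0.40 and above the -0.30 of the mitochondrial ribosomal proteins, whose replicate medians for DMF against Ctrl span 0.35 to 0.38.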

How the data were processed

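Polyadenylated RNA was sequenced as single reads of 50 bp in 9 libraries (3 per group). Per the submitters' processing notes and the methods, the authors aligned reads with STAR 2.4.0b to GRCm38 (Ensembl release 76), counted them per gene with featureCounts and normalized with DESeq2. The signal values they deposited are counts divided by a library size factor (normalized counts). In each library 100% of values above 0 were whole multiples of the smallest step (tolerance 0.01 reads), from which reads were recovered. The authors' deposited table also holds their own log2 fold change, its test statistic (a score), p-value and adjusted p-value for DMF and Ctrl, which were not used.

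The values proved to be normalized and not raw counts, so the test was limma-trend (limma 3.58.1, R 4.3.3) on log2(normalized count + 1). One fit took all 9 libraries with group and preparation batch, over 11599 genes with a mean of at least 10, with Benjamini-Hochberg adjustment over these genes. Fold changes on this scale understate those of low genes. edgeR 4.0.16 (quasi-likelihood) and voom were run on the recovered reads as alternatives, beside other pseudocounts, minimums, scalings, no batch term, the replicate block, robust moderation, only the libraries compared and each library left out. The test was also run on simulated counts that held no batch or replicate effect. That run therefore cannot tell whether the batch term or the replicate block suits these data. Errors given are SDs between libraries or SEs of the fit.

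The replicate numbers of the sample labels were taken to pair the libraries. Deviations from the group means had a correlation over genes of 0.447 to 0.578 in the 9 pairs with the same number, and of -0.471 to -0.062 in the 18 pairs with other numbers. The deviations sum to 0 within each group, so that values below 0 in the 18 pairs largely follow from those of the 9.

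The members and lists were chosen with earlier results of these data known. Genes named are the 5 largest and 5 smallest log2 fold changes of each comparison, the 5 highest and lowest means, the paralogs with their parents, the stalk genes, Rps6, Rpsa, Rpl5, Rpl11, Rps27a, Rpl26 and Rpl13a, and the extremes and most abundant genes of each list. Other called members, Larp1, Npm1, Tia1, Rpf2, Cox7a2l and the printed sequences were chosen after their values were seen. Positions are from GENCODE vM21 (GRCm38). Tables were made in pandas 2.3.3 and NumPy 2.4.6 under Python 3.11.15, and figures in Matplotlib 3.10.9. The results of a few genes are not reported here.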

Additional observations from a re-analysis of the deposited data

How the results depend on the processing

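The number of members called higher with DMF was 31 with the replicate block and also 31 by edgeR with the replicate block, a setting chosen after seeing the data, against 20 in the reported fit. It ranged from 0 to 21 when single libraries were left out, and from 17 to 46 when this was done with the block (37, 39, 40 and 46 without DMF + GSH 2, DMF 2, DMF + GSH 1 and Ctrl 1). For DMF + GSH against DMF the number called lower ranged from 0 to 18, and from 15 to 24 with the block. The median log2 fold changes moved by less than the spread between replicates under all settings run. Among the genes that the naming rule gave for each comparison, directions reversed by more than the SE of the reported fit in 5 cases, in none of which a call was made: Rpl13a for DMF against Ctrl without Ctrl 3 (-0.07, range -0.07 to 0.13 over left-out libraries), Rpl4 under quantile normalization (-0.04), Rps16 without Ctrl 1 (0.06, range -0.15 to 0.06, and 0.06 with the block) and Rps29 for DMF + GSH against Ctrl with the block and without Ctrl 3 (-0.09). Smaller changes of sign also occurred in genes near 0 that were not called, among them Rps3, Rps7, Rps13, Rpl9, Rplp0 and Rpl22l1 for DMF against Ctrl. Outside that set, signs also changed, among others in Rpl4 for DMF + GSH against DMF and in Rpl13a, Rpl27 and Rpl5 for DMF + GSH against Ctrl, where none of these was called. The cause was not tested. Among the genes named, the block brought Rps28, Rps29, Rpl5, Rpl26, Eef1a1 and Gltscr2 past the threshold for DMF against Ctrl, and Rps6, Rpl5, Rpl15, Rpl38, Eef1a1 and Atp5b for DMF + GSH against DMF, and it changed no other call among them. The normalized values hold no absolute amounts, so that a change in total RNA per cell is not seen. Low members rest on few reads, Rpl23a on 6 in 1 library, which limits their precision.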
